A study of Mus musculus with 8 samples.

Results

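The peroxisome proliferator-activated receptors (PPARs), their heterodimer partners and a set of their cofactors were followed through 8 chromatin accessibility profiles of fasted mouse liver. The 10 genes were Ppara, Ppard and Pparg, the partner genes Rxra, Rxrb and Rxrg, the coactivator genes Ppargc1a, Ppargc1b and Lpin1, and the corepressor gene Ncor1. A consensus region was given to a member when no other protein-coding gene lay nearer to it, by distance to the gene span with a limit of 100 kb, on mm10. This gave 109 of the 49587 consensus regions: 25 at Ppara, 18 at Rxra, 17 at Ppargc1a, 15 at Ppargc1b, 11 at Pparg, 10 at Lpin1, 7 at Ppard, 3 at Ncor1, 2 at Rxrg and 1 at Rxrb. Of these, 2 regions were equally near a second gene: the Rxrb region, which also overlaps Slc39a7, and a Lpin1 region that also overlaps Ntsr2. Genes were chosen by name, with earlier results of these data known.

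ATAC-seq, in which a transposase cuts and tags open DNA, was applied to flash-frozen liver of C57BL/6 males aged 9 weeks that had been fasted for 24 h. There were 4 genotypes with 2 libraries each: wild type, Cpt2 L-/- (a liver knockout of Cpt2, whose product lets long-chain fatty acids be oxidised in mitochondria), Ppara -/-, and Cpt2 L-/- with Ppara -/-, whose Ppara loss the labels give as whole-body. The labels name neither the Cre driver, the deleted exons nor the alleles of the wild type mice, and do not say whether replicates are separate animals, so p-values measure only the spread between these libraries. Wild type and Cpt2 knockout are called Ppara-intact below, and Ppara knockout and double knockout Ppara-null.

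PPARs are nuclear receptors that bind fatty acids and, paired with a retinoid X receptor (RXR), occupy a direct repeat of the half-site AGGTCA. In fasting liver, PPARα drives genes of fatty acid oxidation and ketone body formation. PGC-1α and PGC-1β, encoded by Ppargc1a and Ppargc1b, and lipin 1, encoded by Lpin1, raise the transcription of such genes, while NCoR1 recruits histone deacetylases to receptors without an activating ligand. PPARγ is best known from adipocytes, and PPARδ is widely expressed.

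Peak lists differed in length with Ppara status, with 28733 to 39296 peaks when Ppara was intact and 18132 to 22715 when it was null. The number carried in the peak names was 441, 443, 446 or 4717 in the Ppara-intact lists and 6831 to 6834 in the others, so whatever that number stands for cannot be told apart from Ppara status. Read totals are not given, and the depth is unknown. Because a longer list calls more regions, the main counts are set beside the share of all consensus regions and beside lists cut to each library's strongest 18132 peaks, called equal-number lists. Over all consensus regions, a library called 56.9% to 77.7% with Ppara and 35.5% to 44.5% without it. The 8 hepatocyte marker genes had 89 regions, of which a library called 52 to 64 with Ppara and 39 to 47 without it. Regions of 5 endothelial marker genes were called at 12 to 26 and at 5 to 7 of 37, and regions of the cholangiocyte genes Epcam and Sox9 at 5 to 9 and at 0 to 1 of 11. Regions of the stellate cell genes Lrat, Reln and Pdgfrb were called at 2 to 5 and at 0 to 1 of 8. Of the Kupffer cell genes Clec4f had 1 region, called in some Ppara-intact and no Ppara-null libraries, while Vsig4, Cd5l, Adgre1 and Marco had none; Krt19 and Krt7 had none either. The 4 adipocyte genes had 5 to 10 of 11 regions called with Ppara and 2 to 6 without, and the single muscle gene region, at Mylpf, was called in all 8. In equal-number lists the hepatocyte regions were called at 30 to 34 and 36 to 45 and the endothelial ones at 3 to 5 and 5 to 7. The cholangiocyte ones were called there at 1 to 2 and 0 to 1 and the adipocyte ones at 4 to 6 and 2 to 5. Stellate cell regions were called at 0 and at 0 to 1, the Clec4f region in no library and the Mylpf region in all 8. All consensus regions averaged 36.4% and 35.7% in these lists. In whole tissue, fewer cells of a type and less open chromatin per cell cannot be told apart, and the part of these markers in the results was not tested.

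Start sites of 9 of the 10 genes were listed by RefSeq on GRCm38.p6, as 15 windows of 250 bases before to 50 after each start. A consensus region overlapped 10 of the 15, against 49.5% of the 21263 windows of all protein-coding genes. The 5 windows without a region were those of Ppargc1a and Lpin1 and the further starts of Ncor1, Pparg and Rxra. The listed Ppargc1a and Lpin1 windows lie inside these minus-strand genes, and a region did cover the base where each gene span begins. At Lpin1 this was chr12:16653415-16653944, which also overlaps Ntsr2, called in 4 Ppara-intact and 3 Ppara-null libraries. At Ppargc1a it was chr5:52115786-52116192, called in 3 and 1. The 250 bases before 5 starts are shown because their calls run from both extremes: Rxra was called with Ppara alone (by each Ppara-intact library and by none of the rest), Ppard and the internal start of Pparg in 5 of 8 libraries, and Ppara and the internal start of Rxrg in all 8. Capitals mark the half-site AGGTCA, the GC box GGGCGG and the CCAAT box, on either strand.

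Rxra, chr2:27676951-27677200, plus strand: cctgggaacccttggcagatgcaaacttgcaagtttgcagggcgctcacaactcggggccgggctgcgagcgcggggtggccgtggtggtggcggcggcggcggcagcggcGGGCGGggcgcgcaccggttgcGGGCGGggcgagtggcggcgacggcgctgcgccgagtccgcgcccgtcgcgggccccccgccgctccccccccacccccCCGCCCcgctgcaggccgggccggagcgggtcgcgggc

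Ppard, chr17:28232504-28232753, plus strand: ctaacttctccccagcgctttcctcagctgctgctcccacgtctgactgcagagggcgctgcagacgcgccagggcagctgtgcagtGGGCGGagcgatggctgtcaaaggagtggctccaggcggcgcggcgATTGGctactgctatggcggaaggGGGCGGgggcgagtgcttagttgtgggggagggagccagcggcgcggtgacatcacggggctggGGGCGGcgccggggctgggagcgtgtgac

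Pparg internal start, chr6:115421816-115422065, plus strand: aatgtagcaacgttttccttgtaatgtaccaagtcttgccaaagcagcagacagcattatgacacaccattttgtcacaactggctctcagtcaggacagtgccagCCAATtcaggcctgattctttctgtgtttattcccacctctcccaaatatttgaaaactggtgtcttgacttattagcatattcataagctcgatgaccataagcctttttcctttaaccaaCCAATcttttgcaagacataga

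Ppara, chr15:85735526-85735775, plus strand: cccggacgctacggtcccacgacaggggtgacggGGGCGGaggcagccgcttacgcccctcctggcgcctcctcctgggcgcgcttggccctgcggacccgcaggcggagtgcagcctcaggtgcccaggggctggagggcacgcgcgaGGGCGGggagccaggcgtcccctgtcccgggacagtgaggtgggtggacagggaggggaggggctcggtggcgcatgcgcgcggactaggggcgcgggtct

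Rxrg internal start, chr1:167618015-167618264, plus strand: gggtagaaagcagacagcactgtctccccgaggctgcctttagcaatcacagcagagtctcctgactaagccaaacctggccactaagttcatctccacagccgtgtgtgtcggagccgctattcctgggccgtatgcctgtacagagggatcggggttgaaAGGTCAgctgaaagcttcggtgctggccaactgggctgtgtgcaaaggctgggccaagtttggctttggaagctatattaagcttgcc

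The Rxra window held 55 CpG dinucleotides in 300 bases, the Ppara window 30 and the Ppard window 27, against a median of 13 over all windows. The internal starts of Rxrg and Pparg held 9 and 2. Few CpGs thus stood both at a start called in every library (Rxrg) and at one called in 5 (Pparg). The PPAR-RXR motif, AGGTCA repeated after any 1 base and searched on both strands, matched no member window exactly. Allowing 2 mismatches in its 12 fixed letters, it matched only the second Rxra start, chr2:27709042-27709341, where no region was called. Over all windows, 0.047% held an exact match and 3.32% one within 2 mismatches. AGGTCA or its complement stood in 5 of 15 member windows and in 14.7% of all, GGGCGG in 8 and in 46.2%, and CCAAT in 4 and in 38.2%. A match describes letters in the window and shows no binding.

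Wild type libraries called 82 and 92 of the 109 regions, and Cpt2 knockout libraries 98 and 89. Ppara knockout libraries called 49 and 42, and double knockout libraries 57 and 48. The Ppara-intact and Ppara-null libraries did not overlap. Their shares averaged 82.8% ± 6.1 and 45% ± 5.66 (SD, n = 4 each), a difference of -37.8 percentage points, where all consensus regions gave 69.4% ± 8.87 and 38.9% ± 4.26, a difference of -30.6. Without the 25 regions of the targeted gene the members differed by -35.1 points. In equal-number lists the members averaged 45.4% ± 4.88 and 41.5% ± 3.54 (SD, n = 4 each), a difference of -3.9 points that lay within the spread between libraries. All consensus regions gave 36.4% and 35.7% there, a difference of -0.686 points.

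**Figure D1:**
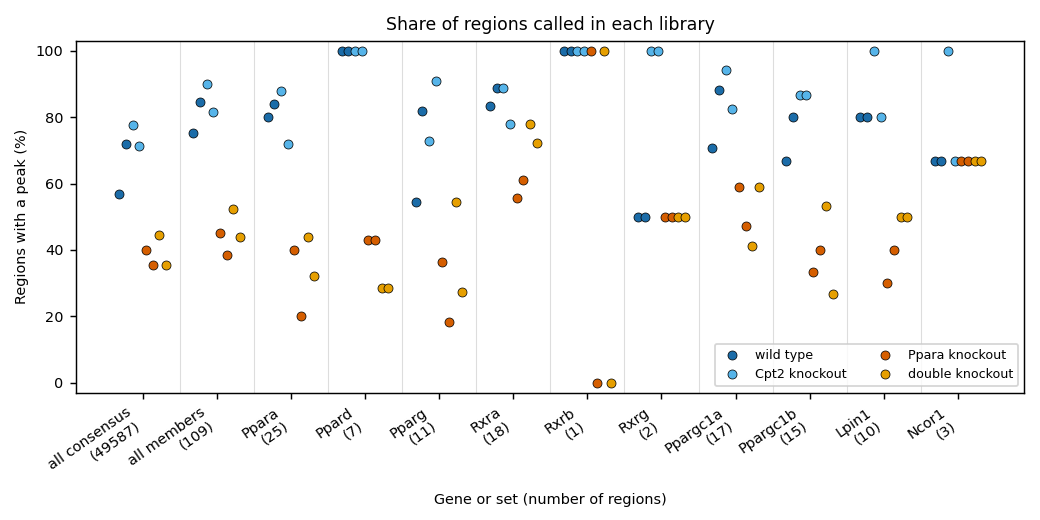
Share of regions with a peak (%, vertical axis) for all consensus regions, all 109 member regions and each member gene (horizontal axis, number of regions in brackets); each point is 1 of 8 libraries, coloured by genotype. The 4 Ppara-intact libraries lie between 75.2% and 89.9% over all members and the 4 Ppara-null ones between 38.5% and 52.3%, and the gap is widest at Ppard and small at Ncor1.

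The size of the gap differed between genes. Ppard, the widely expressed receptor, had all 7 of its regions called in each Ppara-intact library and 2 or 3 in each Ppara-null library. Rxra, the main hepatic RXR gene, had a narrower gap: 14 to 16 of 18 regions were called with Ppara and 10 to 14 without, so the groups met at 14. In equal-number lists the direction turned, with 39 of 72 positions (18 regions in 4 libraries) called with Ppara and 48 without. Pooled over libraries, the share called with and without Ppara was 84.7% and 66.7% at Rxra, 81% and 34% at Ppara and 75% and 34.1% at Pparg. It was 83.8% and 51.5% at Ppargc1a, 80% and 38.3% at Ppargc1b and 85% and 42.5% at Lpin1. In equal-number lists the share was still higher with Ppara at Ppara (44% and 29%), Ppard (53.6% and 28.6%), Ppargc1b (58.3% and 35%) and Lpin1 (47.5% and 42.5%). It was lower with Ppara at Pparg (25% and 31.8%), Ppargc1a (33.8% and 47.1%) and Ncor1 (58.3% and 66.7%), and equal at Rxrg (50%). The single Rxrb region had 1 call with Ppara and none without. These shares are a description. Ncor1 had 2 of its 3 regions called in every library and the third in Cpt2 knockout 1 alone. Of all members, 78 regions were called in fewer Ppara-null than Ppara-intact libraries, 28 in as many and 3 in more, or 71.6%, 25.7% and 2.75%. Over all consensus regions these shares were 66.9%, 25.8% and 7.28%.

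Regions called in every library of one status and none of the other were counted next. Called with Ppara alone were 14 of the 109 member regions, or 12.8%, where the share over all consensus regions was 6.82%. Ppara itself had 7 of the 14, Lpin1 2, and Ppard, Pparg, Rxra, Ppargc1a and Ppargc1b 1 each. With the regions of the Ppara gene left out, the count was 7 of 84, or 8.33%, near the background. No member region was called by the 4 Ppara-null libraries alone, against 0.0686% of all regions. In equal-number lists 2 of 86 member regions were called only with Ppara (2.33%, against 1.34%) and 1 only without (1.16%, against 0.846%). These are counts with no test.

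**Figure D2:**
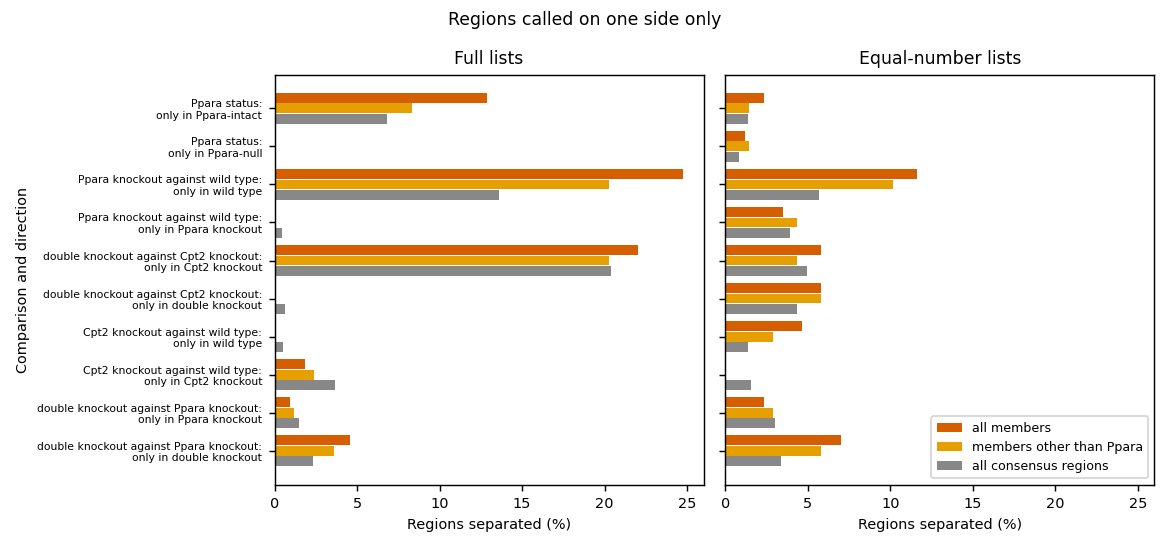
Percent of regions (horizontal axis) called in every library of one side and in none of the other, for 5 comparisons in both directions (vertical axis), with full lists on the left and equal-number lists on the right. Bars give all members, members other than Ppara and all consensus regions; member bars exceed the grey bar most at Ppara status (12.8% against 6.82%) and at Ppara knockout against wild type (24.8% against 13.6%) with full lists.

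Ppara lies on chromosome 15 at 85734910 to 85806851 and its 25 regions lie inside the gene and up to 73640 bases before it. At the region over its start, chr15:85734711-85736214, all 8 libraries had a peak, with folds (MACS2's ratio of the summit pileup to the local background, the authors' value) of 6.8 and 6.48 in wild type, 4.93 and 5.36 in Cpt2 knockout, 4.05 and 5.06 in Ppara knockout and 5.07 and 5.81 in double knockout. The groups overlapped at this start. The call rested on counting any overlap: where a peak had to cover 50% of the region, only the 4 Ppara-intact libraries called it. The labels do not name the deleted exons, so a peak here does not check the knockout.

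Inside Ppara, the region at chr15:85774288-85774815 had folds of 6.02, 7.14, 7.46 and 6.71 and −log10 p of 62.1, 115.6, 117.1 and 98.2 in wild type 1 and 2 and Cpt2 knockout 1 and 2. No Ppara-null list had a peak there. These peaks stood at percentiles 81 to 91.2 of their lists, and the separation was complete in equal-number lists too. Folds of 9.66, 8.77, 7.79 and 5.45 at chr15:85762806-85763305, and of 4.61, 7.06, 6.29 and 4.36 at chr15:85742635-85742997, in the same order, marked the other internal regions called with Ppara alone. In equal-number lists these had a peak in 2 Ppara-intact libraries each.

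Before the gene, the regions called with Ppara alone lay at chr15:85675650-85676051 (folds 3.57, 5.16, 4.65 and 6.54), chr15:85702598-85702942 (3.96, 4.24, 4.19 and 2.88), chr15:85703201-85703545 (2.61, 3.67, 3.02 and 3.34) and chr15:85717010-85717422 (3.96, 4.36, 5.15 and 4.33). They were weaker peaks, and 1, 1, 0 and 3 Ppara-intact libraries kept them in equal-number lists. The strongest Ppara region, chr15:85787162-85787937 inside the gene, was called throughout: its folds were 13, 14.2, 13.9 and 12.9 in the Ppara-intact libraries, 6.85 and 7.03 in Ppara knockout and 10.7 and 8.36 in double knockout. Every Ppara-intact fold exceeded every Ppara-null fold. Such a gap was common, as 60% of the 11258 regions called in all 8 libraries had it in this direction.

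**Figure D3:**
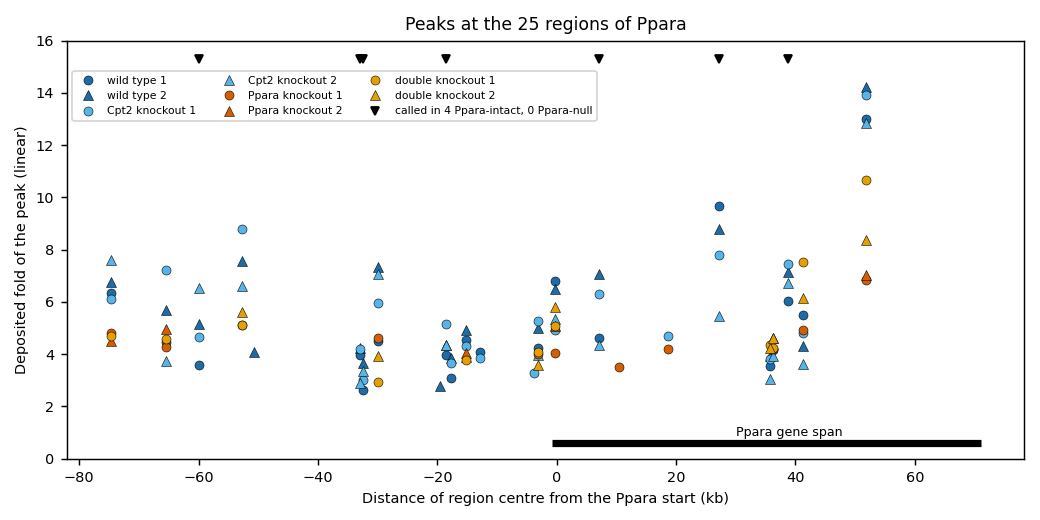
Deposited fold of the overlapping peak (vertical axis, linear) at the 25 regions of Ppara against the distance of the region's centre from the Ppara start (horizontal axis, kb); circles are replicate 1 and triangles replicate 2, coloured by genotype, and black triangles on top mark the 7 regions called with Ppara alone. The highest points, 12.9 to 14.2, belong to Ppara-intact libraries at a region inside the gene.

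By its share of regions called in each library, the genes most like Ppara were Mia2 with 9 regions, Ak4 with 14 and Bri3bp with 7, among 3094 genes with at least 5 regions. The sum of absolute differences in share over the 8 libraries was 0.222, 0.289 and 0.291. This likeness is a description over libraries that share their list lengths.

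Among the other receptors, Ppard had its start region at chr17:28232465-28232975, with folds of 5.6 and 6.43 in wild type, 6.36 and 4.23 in Cpt2 knockout and 3.77 in double knockout 1. The other 3 Ppara-null libraries had no peak there. The region called with Ppara alone, chr17:28280058-28280387, lay inside the gene, with folds of 5.93, 5.24, 6.03 and 4.22. In equal-number lists 1 Ppara-intact library kept it. The strongest Ppard region, chr17:28290275-28290755 inside the gene, was called in all 8, at 8.4, 10.5, 9.32 and 8.05 with Ppara and 8.07, 5.07, 6.71 and 5.6 without, and the groups overlapped.

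At Pparg the first start, chr6:115360798-115362012, was called in all 8 libraries, with folds of 6.79 and 9.6 in wild type, 7.79 and 10.9 in Cpt2 knockout, 7.24 and 7.39 in Ppara knockout and 6.79 and 6.28 in double knockout. The internal start, chr6:115421650-115422181, had folds of 7.1, 8.06, 7.97 and 9.32 with Ppara and 5.24 in double knockout 1, with no peak in the other 3. The internal start was thus missing from 3 lists that held the first. In equal-number lists the first start had a peak in 2 Ppara-intact and 4 Ppara-null libraries, and the internal start in 2 and 0. A region upstream of the internal start, chr6:115419038-115419385, was called with Ppara alone, at 6.16, 7.16, 9.27 and 6.57, and 1 Ppara-intact library kept it in equal-number lists.

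Among the partner genes, Rxra had most of the regions. At Rxra, adjacent regions parted: chr2:27676024-27676677, which holds the first base of the RefSeq gene span, was called in all 8 libraries, with folds of 3.47, 4.97, 4.22 and 3.73 with Ppara and 3.5, 2.97, 3.14 and 3.79 without. The next region, chr2:27676760-27677210, covers the start whose bases are printed above and was called with Ppara alone, with folds of 3.82, 3.89, 3.54 and 3.52. Its −log10 p of 34, 43.1, 28.8 and 28.3 put it at the middle of the lists, and 2 Ppara-intact libraries kept it in equal-number lists. Among start windows of all protein-coding genes with a region, 4.12% were called with Ppara alone, and 59.3% in all 8.

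Beyond the Rxra end, chr2:27764072-27765364 had nearly level folds of 3.11, 3.69, 3.17 and 3.7 with Ppara and 3.37, 3.42, 3.56 and 3.79 without. In equal-number lists it was called by the 4 Ppara-null libraries alone, the 1 member region of that kind. Rxra had 9 of its 18 regions called in all 8 libraries (50%, against 22.7% of all consensus regions), the strongest at chr2:27624651-27625239, 51206 bases before the gene, with folds of 7.65 to 8.85 with Ppara and 4.23 to 7.47 without.

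Rxrg, the RXR gene best known from muscle and brain, had the highest ranked member region. At its internal start, chr1:167617919-167618514, folds were 14.1 and 17.4 in wild type, 16.9 and 17.9 in Cpt2 knockout, 13.5 and 11.6 in Ppara knockout and 13.3 and 13.8 in double knockout. These peaks stood at percentiles 96.8 to 99.4 in all 8 lists. The first Rxrg start, chr1:167598340-167598651, was called only in the Cpt2 knockouts, weakly, with folds of 4.74 and 4.51. Rxrb had a single region, chr17:34031468-34032539, at its starts, with folds of 3.69, 3.39, 4.37 and 3.66 with Ppara and 2.79 and 2.66 in Ppara knockout 1 and double knockout 1. The other 2 Ppara-null libraries had no peak there.

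**Figure D4:**
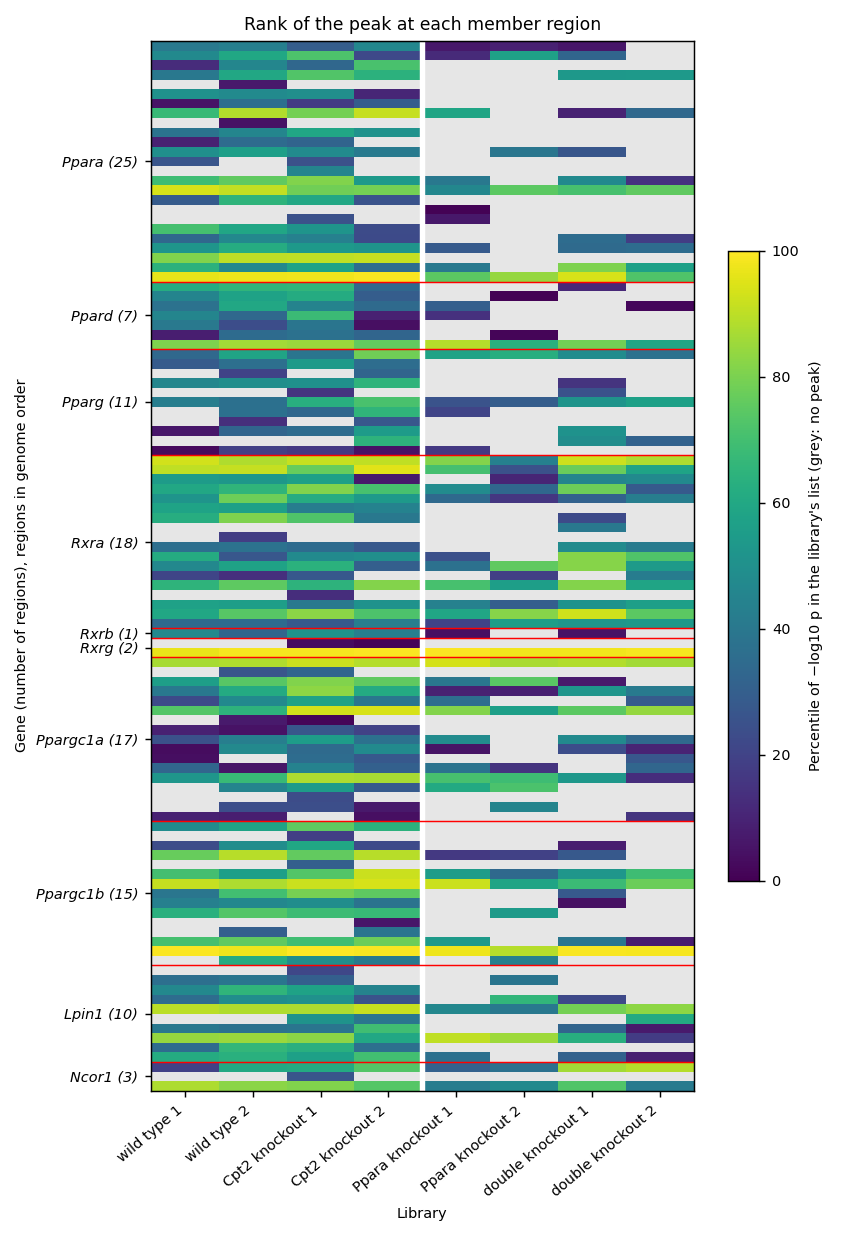
Percentile of the peak's −log10 p within its library's list (colour, 0 to 100, grey where no peak overlapped) for the 109 member regions (vertical axis, by gene and genome order) in the 8 libraries (horizontal axis; the white line parts Ppara-intact from Ppara-null). Grey cells gather on the Ppara-null side, while the internal Rxrg start stays at percentile 96.8 or above in every library.

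Of the coactivator genes, Ppargc1a spans 661605 bases on chromosome 5 and had 4 of 17 regions called in all 8 libraries, or 23.5%, near the share over all regions. No consensus region overlapped its listed start window, chr5:51567676-51567975, which lies inside the gene. Its highest ranked region lay 62558 bases from the gene, chr5:51391048-51391691, with folds of 14.9 and 16.2 in wild type, 17.7 and 15 in Cpt2 knockout, 11.5 and 9.8 in Ppara knockout and 11 and 11.1 in double knockout. The folds were higher in every Ppara-intact library, but the ranks went the other way (below). A region inside the gene, chr5:51552533-51553020, was called with Ppara alone, at 5.19, 4.57, 5.69 and 4.9, and dropped out of every equal-number list.

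Ppargc1b, on chromosome 18 at 61291445 to 61400756, had the other region that kept complete separation in equal-number lists. This region, at 61330202 to 61330587 inside the gene, had folds of 6.54 and 7.94 in wild type and 10.4 and 7.47 in Cpt2 knockout, and no peak in the Ppara-null libraries. Its strongest region, 37162 bases outside the gene at 61437918 to 61438542, was called throughout, with folds of 16.8, 16.5, 17.7 and 16.3 with Ppara and 12, 9.12, 15.7 and 13.3 without. The region at the gene's higher-coordinate end, 61400201 to 61400620, had folds of 5.32, 6.76, 6.02 and 5.33 with Ppara and 4.43 in Ppara knockout 2 alone of the others.

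Lpin1, a phosphatidate phosphatase that also acts in the nucleus as a coactivator, had 2 regions called with Ppara alone, both inside the gene. At chr12:16589490-16590253 folds were 4.36, 6.13, 4.93 and 4.38, and at chr12:16634068-16634555 they were 3.96, 5.93, 5.81 and 4.06. In equal-number lists 3 and 2 Ppara-intact libraries kept them. The highest ranked Lpin1 region, chr12:16618415-16619280, was called in all 8, with folds of 9.44, 9.85, 9.04 and 9.7 with Ppara, 5.19 and 4.74 in Ppara knockout and 7.14 and 7.06 in double knockout. By fold, the double knockouts lay between the others at this region. In equal-number lists their percentiles, 73.7 and 82.8, lay within the 73.1 to 83.7 of the Ppara-intact libraries. The Ppara knockouts stood at 39.6 and 39.4 there. The corepressor gene Ncor1 had its start region, chr11:62456669-62457755, called throughout, with folds of 11.3, 11.6, 11.1 and 8.63 with Ppara and 5.63, 5.45, 7.98 and 5.82 without. These folds did not overlap, as at 60% of all regions called in all 8 libraries. Its percentiles in equal-number lists did overlap, at 47.7 to 80.7 with Ppara and 34.9 to 66 without.

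Each genotype pair was also read by itself. Ppara knockout against wild type gave 27 member regions called in both wild type and neither knockout library, or 24.8%, against 13.6% of all regions, and none in the other direction, against 0.46%. Ppara had 10 of these, Ppargc1b 4, and Pparg, Rxra and Lpin1 3 each. In equal-number lists the split was 10 and 3 (11.6% and 3.49%, against 5.69% and 3.93%). With the regions of the Ppara gene left out, full lists gave 17 and 0 of 84 (20.2% and 0%). Equal-number lists then gave 7 and 3 of 69 (10.1% and 4.35%). Without Ppara knockout 1 the 27 became 41. These pairs are given as counts, with no test.

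Double knockout against Cpt2 knockout, the loss of Ppara where Cpt2 was absent, gave 24 member regions called only in Cpt2 knockout, or 22%, against 20.4% of all regions. This share was near the background. No region was called only in double knockout, against 0.597%. Ppara had 7 of the 24, Ppard 4, and Pparg, Ppargc1a and Ppargc1b 3 each. In equal-number lists both directions gave 5 (5.81%, against 4.95% and 4.31%). Without Cpt2 knockout 2 the 24 became 37, and without double knockout 1 they became 38.

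Loss of Cpt2 with Ppara present, in Cpt2 knockout against wild type, gave 2 member regions called only in Cpt2 knockout, or 1.83%, against 3.63% of all regions, and none only in wild type, against 0.512%. These were the first Rxrg start and chr12:16620207-16620546 inside Lpin1, with folds of 5.11 and 4.56, which double knockout 2 called as well. Equal-number lists held 0 and 4 (0% and 4.65%, against 1.52% and 1.35%), so the direction turned. Leaving out Cpt2 knockout 1, Cpt2 knockout 2 or wild type 2 gave 4, 11 and 6 in place of 2. Without wild type 1 or Cpt2 knockout 1, 3 regions were called only in wild type, and without Cpt2 knockout 2 there was 1.

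Loss of Cpt2 with Ppara absent, in double knockout against Ppara knockout, gave 5 member regions called only in double knockout, or 4.59%, against 2.33% of all regions, and 1 only in Ppara knockout, or 0.917%, against 1.45%. At Ppara, chr15:85682866-85683220 had folds of 5.13 and 5.61 and chr15:85771303-85771660 had 4.36 and 4.24 in the double knockouts. At Rxra, chr2:27702291-27702653 had 3.99 and 4.04, and at Lpin1, chr12:16630161-16631088 had 4.85 and 4.09. All 4 were also called in every Ppara-intact library, so where any overlap counts they were missing from the Ppara knockouts alone. At a −log10 q of at least 20, only the 4 Ppara-intact libraries called the Lpin1 region. The same held where a peak had to cover 50% of it. The fifth, chr6:115493869-115494362, lay 3465 bases past Pparg, with folds of 7.04 and 5.96, and was called in Cpt2 knockout 2 as well.

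The region called only in Ppara knockout of this pair was chr5:51876914-51877260 inside Ppargc1a, with folds of 7.85 and 8.21. It was called in 3 of 4 Ppara-intact libraries too. Equal-number lists gave 6 and 2 regions (6.98% and 2.33%, against 3.35% and 3.03%). The 5 became 14 without double knockout 2 or without Ppara knockout 1 and 8 without double knockout 1, while the 1 became 7, 6, 5 and 2 without Ppara knockout 1, Ppara knockout 2, double knockout 1 and double knockout 2. Of the 15 member regions missing from a single library, 9 were missing from Ppara knockout 2, or 60%, against 39.5% of the 4017 such regions in the whole table.

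Ranks within equal-number lists were compared for the 19 member regions present in all 8. At the Ppara region chr15:85787162-85787937 percentiles were 94.1 and 95.2 in wild type, 95.1 and 97.7 in Cpt2 knockout, 71.8 and 84 in Ppara knockout and 92.7 and 72.4 in double knockout. All Ppara-intact values exceeded all Ppara-null ones, by 95.5 to 80.2 on average (exact p = 0.0286 by permutation, two-sided and the lowest value 4 against 4 libraries allow; Benjamini-Hochberg adjusted over 9073 regions p = 0.259). At the distal Ppargc1a region chr5:51391048-51391691 they were 79.4, 76.1, 82.7 and 78.1 with Ppara and 92.8, 87.2, 85.7 and 86.3 without, so the order turned around (exact p = 0.0286, adjusted p = 0.259). Neither passed 0.05 after adjustment, and nor did any other region, as 0.259 was the lowest adjusted p over all 9073. Failing to pass thus does not set them apart. The Ppara and Ppargc1a regions made 1 of 19 in each direction, or 5.26%. Of all 9073 regions, 5.96% and 5.07% had ranks that did not overlap, so neither share stood out. Of the 19, the Rxra region chr2:27758094-27758776 inside the gene had the largest shift in mean rank, and its groups overlapped. It averaged 47.7 with Ppara and 75.4 without (exact p = 0.0571, adjusted p = 0.323).

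**Figure D5:**
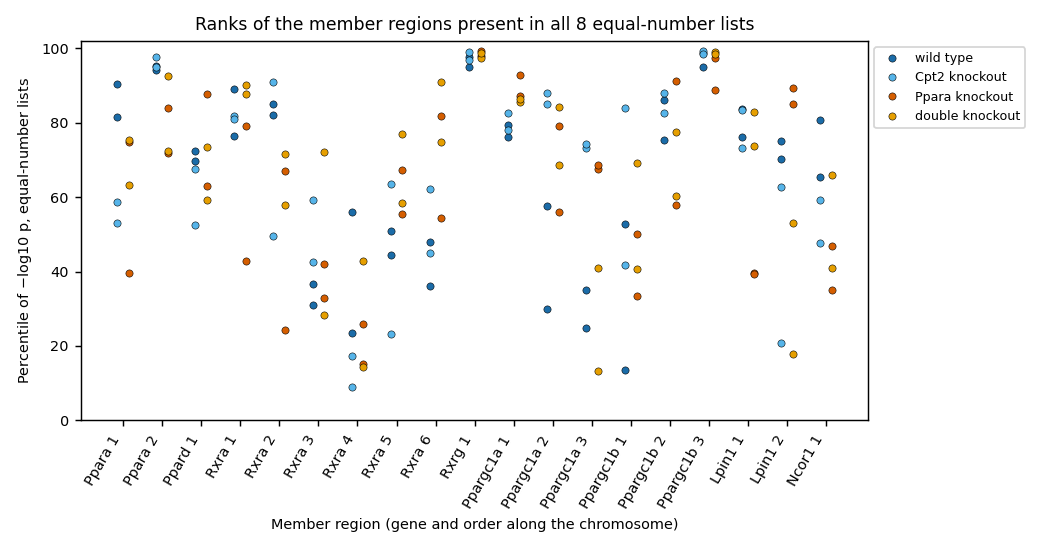
Percentile of −log10 p in equal-number lists (vertical axis) for the 19 member regions present in all 8 (horizontal axis, numbered along the chromosome within each gene); points are libraries coloured by genotype, Ppara-intact to the left and Ppara-null to the right of each position. The points part completely at the second Ppara region (94.1 and above against 92.7 and below) and the first Ppargc1a region (82.7 and below against 85.7 and above).

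Folds were also compared across the 26 member regions called in all 8 libraries. Of these, 12 had folds higher in every Ppara-intact than in every Ppara-null library, against 60% of such regions in the whole table, and none the reverse, against 0.222%. By −log10 p, 17 of the 26 were higher in every Ppara-intact library, against 76.4%, and none in every Ppara-null library, against 0.329%. Of the 109, 9 overlapped a start window, 4 of them called in all 8, 71 lay elsewhere inside a gene and 29 outside.

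Other genes of the pathway were read from lists of coactivators, corepressors, RXR-pairing receptors and lipins. Among the corepressor genes, Tbl1xr1, which encodes a subunit of the NCoR complex, had 5 of 14 regions called with Ppara alone. Nrip1 had 2 of 13, against 6.82% of all consensus regions. Tbl1x had 0 of 7, and Hdac3, Gps2 and Sirt1, with 1 region each, had 0. Receptor genes had 11 of 76, or 14.5%, with 3 at Thrb, the thyroid hormone receptor of liver, and 2 each at Nr1i2 and Rarb. Coactivator genes had 2 of 42, or 4.76%, at Ncoa3 and Helz2, and the other lipin genes 0 of 13. No region of these genes was called by the 4 Ppara-null libraries alone. In equal-number lists the counts with Ppara alone were 0 of 8 for Tbl1xr1, 0 of 4 for Nrip1, 0 of 29 for the coactivators and 0 of 9 for the lipins. The receptors had 1 of 43, against 1.34% of all regions. Called by the 4 Ppara-null libraries alone were 1 of 43 receptor and 1 of 29 coactivator regions, against 0.846%.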

How the data were processed

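The labels give 4 genotypes with 2 libraries each. Each library has its own MACS2 peak list on mm10, per the peak names. The submitters' processing notes name BWA, MACS2 2.1.0 and mm10. Filters, duplicate handling and Tn5 offset are not given in the sources used here. The authors deposited for each peak a fold (ratio of summit pileup to background), a −log10 p and a −log10 q, and a table of consensus positions. No read counts were given, so folds describe peaks within a list and no model was fitted.

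A call means any overlap, from 1 bp up, between a region and a peak of that library, and the overlapping peak with the highest −log10 p gave its values. RefSeq genes of GRCm38.p6, the assembly of mm10, were used. For ranks, an exact two-sided permutation test used all 70 orders, with Benjamini-Hochberg adjustment. Alternatives were equal-number lists, a −log10 q of at least 20, 50% cover, a limit of 20 kb and leaving out each library. Exclusion of tied regions and of Ppara, and the GGGCGG and CCAAT searches, were added later. Regions were described singly if separated by Ppara status, separated in a Cpt2 comparison, at a start or highest ranked of their gene. Also described, chosen after their values were seen, were the Rxra regions starting at 27676024, 27758094 and 27764072 and the Ppargc1b region starting at 61400201. So were the Lpin1 region starting at 16653415 and the Ppargc1a region starting at 52115786. Members and lists were chosen with earlier results of these data known. Scripts used Python 3.11.15, NumPy 2.4.6, pandas 2.3.3 and matplotlib 3.10.9 and were tested on simulated lists. One gene of the corepressor list is not reported here.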

Additional observations from a re-analysis of the deposited data

Results flagged for a closer look

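Among 63 groups of 4 libraries of one Ppara status, 4 had a library far from the others. The 1 in 20 that chance gives under this rule does not hold for region counts. When the other libraries tie, any single different count is flagged, even by 1 region. Cpt2 knockout 1 called 10 Lpin1 regions where the other Ppara-intact libraries called 8 each. The same library called 3 Ncor1 regions where the others called 2. At the Lpin1 region chr12:16630161-16631088 the fold was 6.24 in Cpt2 knockout 2 and 4.27 to 4.41 in the other Ppara-intact libraries. At the Ncor1 start the fold was 7.98 in double knockout 1 and 5.45 to 5.82 in the other Ppara-null libraries.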

How the results depend on the processing

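No paired analysis was possible because the counts come from no test and the replicate numbers are not tied to a shared animal or day. In equal-number lists, which hold fewer peaks of the Ppara-intact libraries by construction, regions called only with Ppara numbered 2 and only without Ppara 1. There the counts were 10 only in wild type and 3 only in Ppara knockout, 5 only in Cpt2 knockout and 5 only in double knockout, 4 only in wild type and 0 only in Cpt2 knockout, and 2 only in Ppara knockout and 6 only in double knockout. The difference in calls per library was -3.9 points there. At a −log10 q of at least 20, 1 region was called only in Cpt2 knockout against wild type and 2 only in Ppara knockout against double knockout, and with 50% cover the latter was 4; the cause was not tested. With the regions of the Ppara gene left out, 7 of 84 regions were called only with Ppara intact (8.33%, against 6.82% of all regions). Only in wild type against Ppara knockout there were 17 (20.2%, against 13.6%), and only in double knockout against Ppara knockout 3 (3.57%, against 2.33%). Ranked by fold, 0 member regions were higher in either status, and in full lists 5 were higher with Ppara and 0 without. No share over all regions is given for these settings, and full lists differ in length with Ppara status. These counts are therefore not read as a result about the members.

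Leaving out one library means fewer libraries have to be separated, so counts can rise by construction. Regions called only with Ppara then numbered 14 to 21 and only without 0 to 0. The ranges were 29 to 41 only in wild type and 0 to 2 only in Ppara knockout, 28 to 38 only in Cpt2 knockout and 0 to 1 only in double knockout, 0 to 3 only in wild type and 3 to 11 only in Cpt2 knockout, and 2 to 7 only in Ppara knockout and 6 to 14 only in double knockout. Calls per library differed by -40.4 to -35.5 points, and regions ranked higher numbered 1 to 2 with Ppara and 1 to 3 without. Ppara-intact minus Ppara-null libraries calling a region turned to -1 at chr12:16620207-16620546 (Lpin1) and chr5:51876914-51877260 (Ppargc1a) and to -2 at chr15:85771303-85771660 (Ppara) and chr2:27702291-27702653 (Rxra) in equal-number lists, and to 1 at chr6:115493869-115494362 (Pparg) at a −log10 q of at least 20. Peak lists without read counts cannot show whether an uncalled region was closed or below the caller's threshold.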
